A study of Homo sapiens with 2 samples.

Results

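The 10 genes described here, PROM1, SOX2, LGR4, LGR5, ALDH1A1, ALDH1A2, ALDH1A3, NES, MSI1 and BMI1, are markers used to recognise stem cells and tumour-initiating cells. They were chosen by gene symbol, and each symbol had 1 entry among the 53737 genes of the tables. RNA was profiled in SK-ES-1, a long-established line grown from an Ewing sarcoma, whose labels give bone as the tissue and WT as the genotype. The design had 2 libraries, 1 of slow-cycling cells and 1 of non-slow-cycling cells, both of the same line. The way in which the slow-cycling cells were isolated is not given in the sources used here. With 1 library per group no difference below has a replicate check and none has a p-value. Levels are in per-million units, back-transformed from deposited values taken to be log2(value + 1), and a log2 ratio is log2(value + 1) in slow-cycling cells less that in non-slow-cycling cells. Read depth was unknown, and a gene listed at 0 may be one that the quantification did not estimate.

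Stem cell markers are a mixed class, because each was taken from a different system. PROM1 encodes CD133, a membrane protein of cell protrusions that has been used to sort tumour-initiating cells, in Ewing sarcoma among other tumours. SOX2 is a transcription factor that keeps pluripotent and neural progenitor cells undifferentiated, and BMI1 is a subunit of the chromatin repressor PRC1 needed for self-renewal of blood and neural stem cells. LGR4 and LGR5 are receptors for R-spondins, secreted proteins that strengthen WNT signalling, and LGR5 marks the stem cells of the intestinal crypt. The 3 ALDH1A enzymes oxidise retinaldehyde to retinoic acid and contribute to the aldehyde dehydrogenase activity by which stem-like cells are often sorted. NES, the intermediate filament protein nestin, and MSI1, the RNA-binding protein Musashi, mark neural progenitors.

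PROM1 was the one member set apart by more than 1.5-fold, higher in the slow-cycling library, while SOX2, ALDH1A1, BMI1, LGR4, LGR5 and MSI1 had slow-cycling levels between 0.883 and 1.15 times the non-slow-cycling ones. ALDH1A2 and ALDH1A3 were listed at 0 in both libraries, and NES was close to 0. Genes that reached 1 per-million unit in either library are called tested, meaning that their ratio was counted, and 7 of the 10 members did so. Counts at 1.5-fold use the log2 ratio with the added 1. A low gene can therefore pass 1.5 in its plain level without being counted. Of these 7, 1 was at least 1.5-fold higher, where 5.38% of all 13444 tested genes were, and none was at least 1.5-fold lower, where 1.41% of tested genes were. The member ratios were above 0 for 3 and below 0 for 4. Their median log2 ratio was -0.02, against 0.03 over all tested genes.

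The ratio of a gene can be set beside those of genes with like levels. For each tested member the central 95% of the ratios of the 500 tested genes nearest in mean level was taken, as a description of these 2 libraries. All 7 tested members, PROM1 included, lay inside that range.

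**Figure D1:**
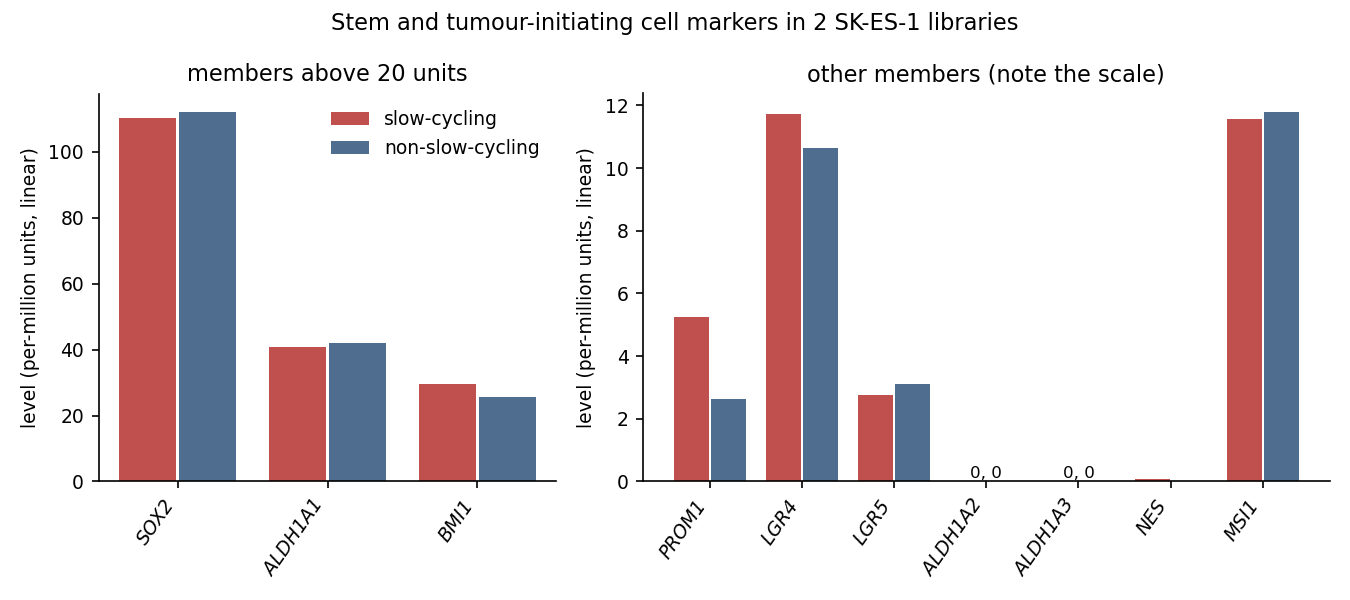
Level of each of the 10 members in per-million units on a linear axis starting at 0, with the slow-cycling library in red and the non-slow-cycling library in blue, 1 library each and therefore no error bars. PROM1 is at 5.25 in slow-cycling and 2.63 in non-slow-cycling cells, and the other members have bars of near equal height or none.

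**Figure D2:**
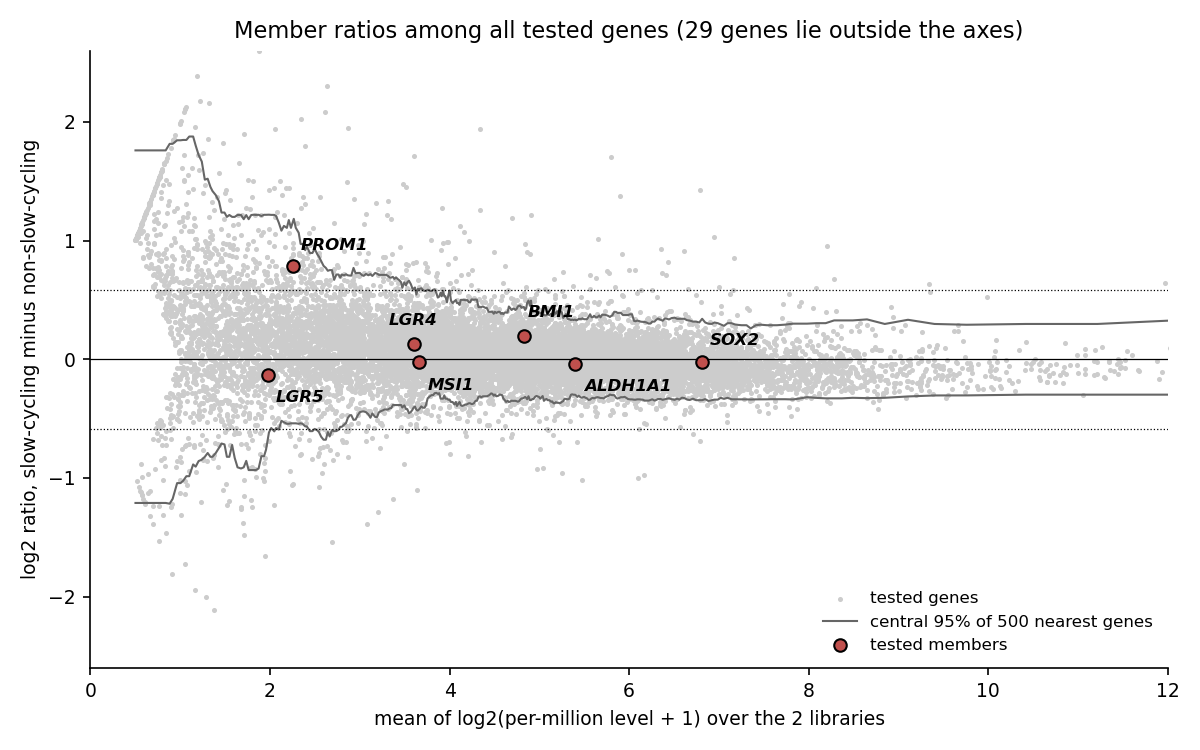
Log2 ratio (slow-cycling minus non-slow-cycling) against the mean log2(per-million level + 1), with the tested genes in grey, the 7 tested members in red, the central 95% of the 500 nearest genes as grey lines and the 1.5-fold limits dotted. PROM1, at 0.78, lies above the dotted line and below the upper grey line, and 29 tested genes lie outside the axes.

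PROM1 (Entrez gene 8842) lies on chromosome 4 (15968228 to 16084023, GRCh38). It was at 5.25 per-million units in slow-cycling cells and 2.63 in non-slow-cycling cells. The level was 1.99 times as high in slow-cycling cells, and the log2 ratio was 0.78, since the added 1 shrinks the ratio of low genes. Genes of like level had ratios between -0.54 and 1.11 in their central 95%, with a median of 0.17. Of all tested genes, 410 had a higher ratio, which is 3.05% of them. The ratio was 0.61 after the median of the 500 nearest genes was subtracted and 0.97 with a pseudocount of 0.1. At a threshold of 2-fold, which 1.90% of tested genes passed upward, PROM1 was not counted.

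PROM1 has several annotated starts, and the tables hold 1 value per gene, so the start used in these cells cannot be told from them. RefSeq promoter windows on GRCh38.p14, each of 250 bases before and 50 bases after an annotated start, were found for 8 of the 10 members and number 13, of which 4 belong to PROM1. The PROM1 windows with the most and the fewest CG dinucleotides are printed to show how unlike these starts are, read 5′ to 3′ on the minus strand, with each CG in capitals.
PROM1, window with the most CG, chr4:16083680-16083979: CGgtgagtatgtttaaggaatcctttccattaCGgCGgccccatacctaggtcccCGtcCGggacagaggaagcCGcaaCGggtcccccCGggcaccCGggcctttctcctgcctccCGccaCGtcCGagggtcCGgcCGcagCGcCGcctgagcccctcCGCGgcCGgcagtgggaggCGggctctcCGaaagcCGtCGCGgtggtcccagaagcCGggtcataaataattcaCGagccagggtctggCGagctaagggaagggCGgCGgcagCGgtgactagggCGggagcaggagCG
PROM1, window with the fewest CG, chr4:16076069-16076368: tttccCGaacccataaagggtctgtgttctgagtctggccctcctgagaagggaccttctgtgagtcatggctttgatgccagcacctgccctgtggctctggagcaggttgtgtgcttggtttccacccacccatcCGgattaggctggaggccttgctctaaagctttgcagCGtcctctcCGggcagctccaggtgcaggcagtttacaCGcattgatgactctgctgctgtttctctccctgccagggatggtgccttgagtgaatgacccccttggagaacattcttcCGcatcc
The first of these holds 32 CG dinucleotides and the other 6, where the median of 35116 RefSeq windows is 14. The most upstream PROM1 window, chr4:16083974-16084273, holds 18, and the remaining one 24. No CCAAT, the letters of a common promoter box, was found on either strand of the 2 windows printed. The most upstream PROM1 window does hold CCAAT, and the remaining one does not.

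SOX2 (Entrez gene 6657) had the highest level of the members in both libraries. The gene has a single exon and lies on chromosome 3 (181711925 to 181714436). It was at 110 per-million units in slow-cycling cells and 112 in non-slow-cycling cells, a log2 ratio of -0.02. The sign of that ratio turned, to 0.04, when the trend of ratios with level was subtracted. The central 95% of genes of like level ran from -0.34 to 0.31. SOX2 lies inside SOX2-OT, a long non-coding gene (181056680 to 181742228), which was listed at 0 in both libraries.

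BMI1 (Entrez gene 648; chromosome 10, 22321099 to 22331706) had 29.4 per-million units in slow-cycling cells and 25.5 in non-slow-cycling cells. Its log2 ratio of 0.20 was the next after that of PROM1, and 23.5% of tested genes had a higher one. Its value is uncertain because the read-through gene COMMD3-BMI1 (22316388 to 22331484) overlaps it, and reads of both models can be divided in more than 1 way. COMMD3-BMI1 was at 26.6 in slow-cycling cells and 23.7 in non-slow-cycling cells. The sum of both models was 56.0 in slow-cycling and 49.2 in non-slow-cycling cells, a log2 ratio of 0.18. COMMD3, the upstream gene of the read-through, was at 78.5 in slow-cycling cells and 80.9 in non-slow-cycling cells.

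LGR4 (Entrez gene 55366; chromosome 11, 27365961 to 27472790) had 11.7 per-million units in slow-cycling cells and 10.6 in non-slow-cycling cells, a log2 ratio of 0.13. LGR5 (Entrez gene 8549; chromosome 12, 71439129 to 71586310) stood at 2.75 in slow-cycling cells and 3.12 in non-slow-cycling cells, a log2 ratio of -0.13. The receptors thus had ratios of opposite sign and equal size at this rounding. Both lay well inside the central 95% of genes of like level, which ran from -0.41 to 0.59 for LGR4 and from -0.69 to 1.23 for LGR5.

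ALDH1A1 (Entrez gene 216; chromosome 9, 72900671 to 72953053) had 40.8 per-million units in slow-cycling cells and 41.8 in non-slow-cycling cells, a log2 ratio of -0.04. ALDH1A2 (Entrez gene 8854; 57953429 to 58065711) and ALDH1A3 (Entrez gene 220; 100879831 to 100916626), both on chromosome 15, were listed at 0 in both libraries. The whole level listed for this enzyme group therefore came from ALDH1A1 in each library. The windows around the starts of the 3 genes are printed because paralogs with nearly the same reaction differ so far in level in these cells. They are on GRCh38.p14, 5′ to 3′ on the strand of the gene, with each CG in capitals.
ALDH1A1, minus strand, chr9:72953004-72953303: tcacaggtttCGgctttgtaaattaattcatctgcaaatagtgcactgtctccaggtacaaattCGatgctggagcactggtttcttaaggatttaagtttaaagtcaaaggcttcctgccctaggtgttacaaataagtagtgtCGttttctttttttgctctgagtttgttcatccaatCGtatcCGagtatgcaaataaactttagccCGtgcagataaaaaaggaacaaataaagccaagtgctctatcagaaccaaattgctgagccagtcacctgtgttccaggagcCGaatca
ALDH1A2, minus strand, chr15:58065662-58065961: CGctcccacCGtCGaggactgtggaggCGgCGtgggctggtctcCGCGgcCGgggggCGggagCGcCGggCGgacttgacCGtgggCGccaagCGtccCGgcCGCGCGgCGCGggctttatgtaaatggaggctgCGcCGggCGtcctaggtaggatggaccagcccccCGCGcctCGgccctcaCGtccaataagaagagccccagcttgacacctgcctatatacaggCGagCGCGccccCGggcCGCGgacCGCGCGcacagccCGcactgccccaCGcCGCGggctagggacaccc
ALDH1A3, plus strand, chr15:100879581-100879880: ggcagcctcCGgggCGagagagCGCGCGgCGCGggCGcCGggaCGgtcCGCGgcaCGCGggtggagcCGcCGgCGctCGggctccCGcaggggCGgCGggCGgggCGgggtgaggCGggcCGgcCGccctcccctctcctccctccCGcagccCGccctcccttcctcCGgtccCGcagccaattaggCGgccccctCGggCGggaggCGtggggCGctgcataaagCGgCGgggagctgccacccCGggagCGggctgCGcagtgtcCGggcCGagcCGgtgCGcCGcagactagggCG
The ALDH1A1 window holds 7 CG dinucleotides and 40.3% G and C, and 39.3% of all windows hold as few CG or fewer. The ALDH1A2 window holds 41 and the ALDH1A3 window 46, counts that 6.69% and 2.89% of all windows reach. An annotated downstream start of ALDH1A2 has a window with 1 CG (chr15:58013974-58014273). The CCAAT letters were found in each of the 3 printed windows, with their first base at -74 in ALDH1A1, -62 in ALDH1A2 and -71 in ALDH1A3, counted from the start as +1 with no base 0. On either strand they were found in 6 of the 13 member windows and in 34.6% of all windows. GGAAGGAA, a run of the GGAA repeat bound by the Ewing sarcoma fusion protein, was in none of the 13 on either strand and in 3.67% of all windows. These matches describe letters in a window, and whether CG content or any box bears on the levels was not tested.

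NES (Entrez gene 10763; chromosome 1, 156668763 to 156677407) had 0.0774 per-million units in slow-cycling cells and was listed at 0 in non-slow-cycling cells. The value is under the minimum for testing, and no fold is given against a library at 0. MSI1 (Entrez gene 4440; chromosome 12, 120339662 to 120369164) stood at 11.6 in slow-cycling cells and 11.8 in non-slow-cycling cells, a log2 ratio of -0.03. The 2 neural progenitor markers thus differed widely from each other, with MSI1 present and NES at or near 0 in both libraries.

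If the values are per length, as TPM would be, the members can be put in an order of level. That SOX2, ALDH1A1 and BMI1 led in this order held in both libraries. LGR4 and MSI1 came next and changed places, with LGR4 ahead in slow-cycling cells and MSI1 ahead in non-slow-cycling cells. PROM1 and LGR5 also changed places, with PROM1 ahead in slow-cycling cells and LGR5 ahead in non-slow-cycling cells. There is no replicate spread against which to set the differences between neighbours. NES, ALDH1A2 and ALDH1A3 came last.

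The gene lists that surround the members were drawn from textbook knowledge. In the R-spondin pathway the ligands RSPO1 to RSPO4, the receptor LGR6 and the ubiquitin ligase RNF43 were listed at 0 in both libraries, so that LGR4 and LGR5 had no R-spondin ligand with a listed level in these cells. ZNRF3, the other ligase that removes Frizzled receptors from the surface, was at 9.51 per-million units in slow-cycling and 10.4 in non-slow-cycling cells. The WNT co-receptors LRP5, at 53.3 in slow-cycling and 52.0 in non-slow-cycling cells, and LRP6, at 45.5 in slow-cycling and 42.3 in non-slow-cycling cells, had listed levels in both. Of 19 genes 12 were tested, with 6 log2 ratios above 0, 6 below, none at 1.5-fold on that scale and a median of 0.01. Among the Frizzled receptors FZD1 was at 137 in slow-cycling and 121 in non-slow-cycling cells, and FZD8 at 84.6 in slow-cycling and 91.1 in non-slow-cycling cells. FZD5 had a log2 ratio of 0.43, FZD7 of 0.38 and FZD2 of -0.18. The plain level of FZD5, 2.65 in slow-cycling and 1.71 in non-slow-cycling cells, was 1.55 times as high in slow-cycling cells.

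Of the 16 other aldehyde dehydrogenases, 11 were tested, none differed by 1.5-fold and the median log2 ratio was 0.00. ALDH9A1 was at 140 per-million units in slow-cycling and 136 in non-slow-cycling cells. ALDH18A1, the enzyme that makes the precursor of proline, was at 85.8 in slow-cycling and 96.9 in non-slow-cycling cells. ALDH3A2, which oxidises fatty aldehydes, was at 77.7 in slow-cycling and 83.9 in non-slow-cycling cells, and the lysine-degrading ALDH7A1 was at 45.0 in slow-cycling and 49.7 in non-slow-cycling cells. Those with the widest ratios were ALDH1L2, a mitochondrial folate enzyme (0.43), ALDH5A1 (0.24), ALDH1B1 (-0.23) and ALDH2 (0.18). ALDH1A1 was thus 1 of 12 aldehyde dehydrogenases with at least 1 per-million unit, and its level was not the highest among them.

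**Figure D3:**
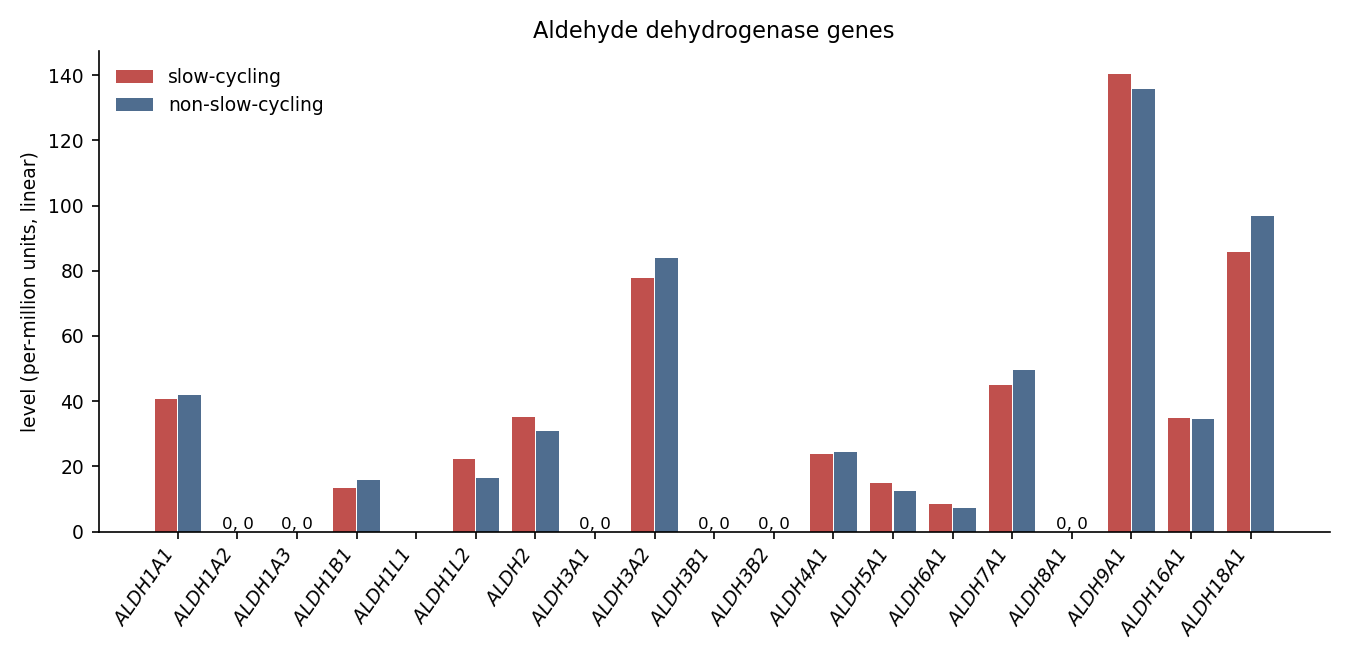
Level of the 19 aldehyde dehydrogenase genes in per-million units on a linear axis starting at 0, with the slow-cycling library in red and the non-slow-cycling library in blue, and "0, 0" where a gene was listed at 0 in both. ALDH1A1 is at 40.8 in slow-cycling and 41.8 in non-slow-cycling cells, and ALDH1A2 and ALDH1A3 have no bar.

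The genes that make, carry and answer to retinoic acid, the product of the ALDH1A enzymes, had a median log2 ratio of -0.01 over 14 tested of 19, with 7 ratios above 0 and 7 below. CRABP2, which carries retinoic acid to its nuclear receptors, was at 14.2 per-million units in slow-cycling and 6.87 in non-slow-cycling cells, a log2 ratio of 0.95, the widest of the list and the only one at 1.5-fold. CYP26B1, which degrades retinoic acid, was at 11.1 in slow-cycling and 7.51 in non-slow-cycling cells (0.51). Lower in slow-cycling cells were CRABP1, another cellular carrier, at 155 against 192 in non-slow-cycling cells (-0.31), and FABP5, a fatty acid carrier that also binds retinoic acid, at 310 against 371. RDH11, a retinal reductase, was at 86.5 in slow-cycling and 79.7 in non-slow-cycling cells, and the receptor RARG at 45.0 in slow-cycling and 49.6 in non-slow-cycling cells. RARB and CYP26A1, which retinoic acid induces in many cells, were listed at 0 in both libraries.

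Among 16 pluripotency factors, POU5F1, LIN28A, DPPA4, ZFP42, TDGF1, PRDM14 and UTF1 were listed at 0 in both libraries, so SOX2 had a listed level and its partner POU5F1 had none. NANOG was under the minimum, at 0.568 in slow-cycling and 0.513 in non-slow-cycling cells. Of 7 tested none differed by 1.5-fold, and the median log2 ratio was -0.02. The microRNA-binding LIN28B, which blocks let-7 processing, was at 30.0 in slow-cycling and 35.1 in non-slow-cycling cells. MYC (-0.02), L1TD1 (-0.01), ESRRB (-0.22), SALL4 (0.12), TERT (-0.11) and DNMT3B (0.09) are given by their log2 ratios.

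Among the 19 other SOX genes 8 were tested, 7 with a ratio above 0, and the median log2 ratio was 0.15. The most abundant were SOX4, at 88.0 per-million units in slow-cycling and 79.1 in non-slow-cycling cells, SOX11, at 70.8 in slow-cycling and 69.6 in non-slow-cycling cells, SOX12, at 54.9 in slow-cycling and 55.7 in non-slow-cycling cells, and SOX1, a close relative of SOX2, at 45.4 in slow-cycling and 45.0 in non-slow-cycling cells. SOX15, at 2.76 in slow-cycling and 1.48 in non-slow-cycling cells, had a log2 ratio of 0.60 and was the one gene of the list at 1.5-fold, a call lost when the median of all genes was set to 0. SOX8 had a ratio of 0.31 and SOX13 of 0.24. The other 7 tested genes of the list had ratios between -0.02 and 0.31.

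**Figure D4:**
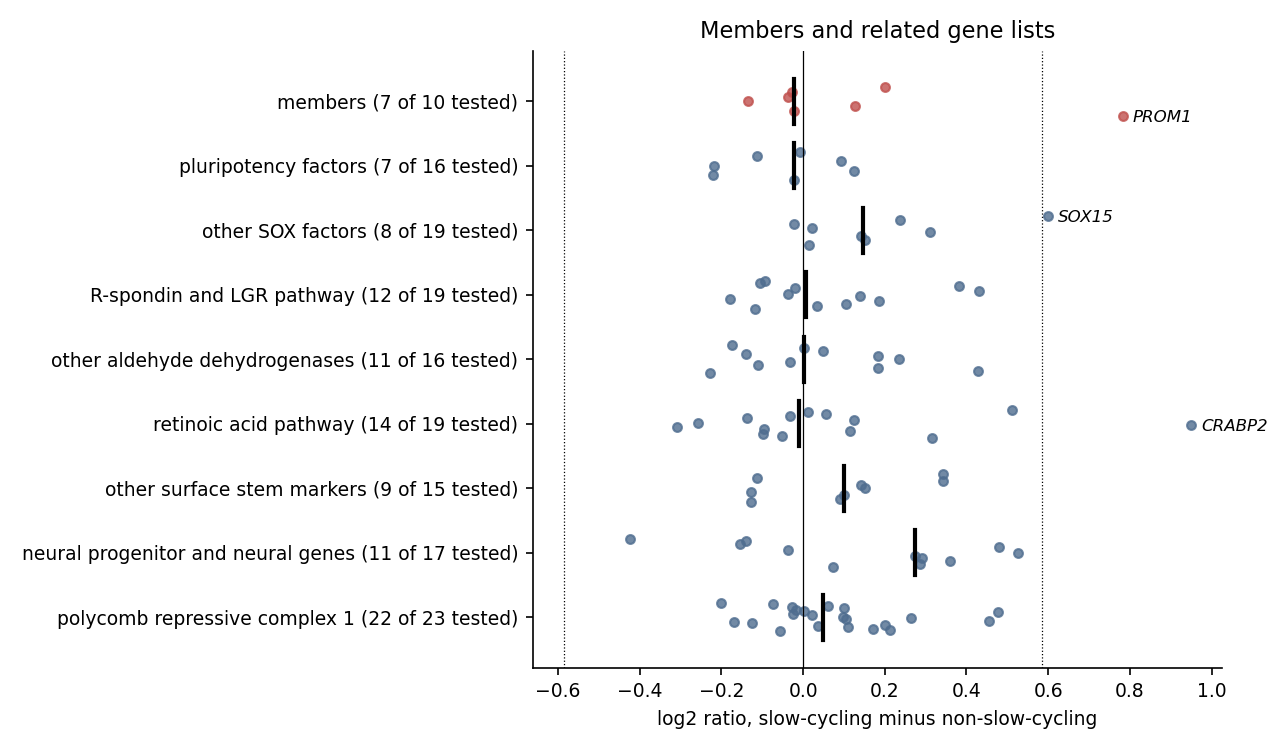
Log2 ratio (slow-cycling minus non-slow-cycling) of each tested gene of the members and of 8 related lists, 1 dot per gene, with a black bar at the median of each list and dotted lines at 1.5-fold. PROM1 (0.78), SOX15 (0.60) and CRABP2 (0.95) are the 3 genes beyond the dotted lines.

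Among other surface markers used on stem-like or mesenchymal stem cells, CD44, CXCR4, NT5E, PDGFRA and PROM2, the paralog of PROM1, were listed at 0 in both libraries. Of 15 genes 9 were tested, none at 1.5-fold, with a median log2 ratio of 0.10. NGFR was at 130 in slow-cycling and 142 in non-slow-cycling cells, ITGB1 at 165 in slow-cycling and 155 in non-slow-cycling cells, ENG at 60.5 in slow-cycling and 65.6 in non-slow-cycling cells, and the stem cell factor receptor KIT at 47.3 in slow-cycling and 42.5 in non-slow-cycling cells. THY1 and MCAM both had a log2 ratio of 0.34 and ALCAM of 0.14.

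The partners of NES and MSI1 in neural tissue had a median log2 ratio of 0.27 over 11 tested of 17, 7 above 0 and 4 below. None was at 1.5-fold on that scale. Over the 500 genes nearest in level to each of the 11, the median ratio was typically 0.09, the median over those 11 sets. VIM, the filament protein that pairs with nestin, was at 555 in slow-cycling and 432 in non-slow-cycling cells (0.36), against the near absence of NES. NUMB, a transcript that MSI1 binds, was at 40.9 in slow-cycling and 33.4 in non-slow-cycling cells. The neurofilament NEFH was at 169 in slow-cycling and 186 in non-slow-cycling cells, and the tubulin TUBB3 at 128 in slow-cycling and 132 in non-slow-cycling cells. PAX6 (0.53) and INA (0.48) had the highest ratios, and SYP, a synaptic vesicle protein, the lowest (-0.42). The plain level of PAX6, 3.14 in slow-cycling and 1.87 in non-slow-cycling cells, was 1.68 times as high in slow-cycling cells.

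BMI1 is one of a set of alternative PCGF subunits of PRC1, and 22 of the 23 genes in the list of this complex and its targets were tested. The median log2 ratio was 0.05, with 14 above 0, 8 below and none at 1.5-fold. The E3 ligase subunit RNF2 was at 47.7 in slow-cycling and 41.0 in non-slow-cycling cells (0.21). PHC3 (0.48) and CBX7 (0.26) were among the highest ratios, while the more abundant PHC2 (-0.03), PHC1 (0.02), CBX2 (-0.17) and KDM2B (-0.02) lay nearer 0. PCGF2, the subunit most like BMI1, was at 30.8 in slow-cycling and 28.4 in non-slow-cycling cells. CDKN2A, a gene that BMI1 is known to repress, was at 53.9 in slow-cycling and 62.1 in non-slow-cycling cells, and its neighbour CDKN2B was listed at 0 in both.

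All 10 listed markers of Ewing sarcoma were tested and none differed by 1.5-fold. No other line was profiled, so these values describe the markers, and the identity of the cells was not tested. CD99 was at 213 in slow-cycling and 245 in non-slow-cycling cells, and STEAP1 at 294 in slow-cycling and 288 in non-slow-cycling cells. The log2 ratios ran from -0.30 (NR0B1) to 0.26 (JAK1), with NKX2-2 at -0.16, FLI1 at -0.08 and PRKCB at 0.06. BCL11B and LIPI lay at 0.21 and 0.24, and CCND1 at 0.02. All 8 tested fibroblast and pericyte markers had a ratio above 0, as did 7562 of all 13444 tested genes, and 2 of the 8 were at least 1.5-fold higher, where 5.38% of tested genes were. They were COL1A1 (0.96) and FAP (0.77), with DCN, PDGFRB, THY1, ACTA2, COL1A2 and COL3A1 between 0.05 and 0.36, and the summed level of the list was 291 in slow-cycling and 261 in non-slow-cycling cells. Of 8 blood cell markers the defining PTPRC was listed at 0, as were CD3E, HBB and HBA1, while CD68 (0.71) and LYZ (0.30) gave most of a summed level of 15.5 in slow-cycling and 9.66 in non-slow-cycling cells. Of 8 endothelial markers EMCN alone was above 0, at 11.2 in slow-cycling and 8.62 in non-slow-cycling cells, and of 7 epithelial markers EPCAM alone, at 1.37 in slow-cycling and 1.21 in non-slow-cycling cells. In the blood cell list 2 of 3 tested markers passed 1.5-fold upward, and in the endothelial and epithelial lists none was. PROM1 was higher in the same library as the fibroblast and blood cell genes past 1.5-fold, and their part in its ratio was not tested.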

How the data were processed

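Polyadenylated RNA of 1 slow-cycling and 1 non-slow-cycling sample was sequenced with a kit that keeps strand, per the labels' protocols, on build hg38, per the submitters' processing notes. For the aligner, the counting tool and the use of strand in counting, the answer is not given in the sources used here. The deposited values are called normalized per the file headers, which also use the unexplained names LRC and non-LRC. They were read as log2(value + 1), because the deposited values held none below 0 and their back-transformed sums were 983638 and 984120; the authors' scale is not stated, nor whether it is per length, and depth is unknown. Groups follow the sample titles.

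Lines of 1 Entrez ID with a locus suffix (174 of 53826) were summed. Genes at 1 per-million unit or more in either library were tested (13444), with a pseudocount of 1. No p-value was computed. Calls were genes at 1.5-fold on the log2 ratio with that pseudocount. For each tested gene the median and central 95% of ratios of the 500 nearest genes in mean level were taken. On simulated data the calls were checked to recover seeded ratios, and recovery at levels as low as those of PROM1 and LGR5 was not tested. Coordinates and promoter windows came from RefSeq on GRCh38.p14. Named genes are all members and, of each other list, up to the 4 widest ratios and the 4 highest levels, plus markers of other cell types above 1 unit; any other was chosen after its values were seen. Some items that this rule names are left out here. The members and lists were chosen with earlier results of these data known. Python 3.11.15, numpy 2.4.6 and pandas 2.3.3 were used. Alternatives are given in the closing section.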

Additional observations from a re-analysis of the deposited data

How the results depend on the processing

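The count of members at 1.5-fold, 1 of 7, was also 1 with a pseudocount of 0.1, both other scalings, no filter, a minimum of 5 units, the lower fold threshold, or the trend with level subtracted. At 2-fold it was 0. The members' median log2 ratio ran from -0.06, after centring all tested genes on 0, to 0.05 with the minimum of 5 units, and moved by less than 0.1 in every alternative run. In 41 recalculated ratios of single members, PROM1 stayed above 1.5-fold and the others below it. SOX2 alone changed sign, to 0.04 with the trend subtracted. Of 52 recalculated counts and medians of the other lists 2 moved. The SOX genes had 0 at 1.5-fold after that centring, and the surface markers had 1 with no filter, CD24, at 0.883 in slow-cycling cells and listed at 0 in non-slow-cycling cells. Each group held 1 library, so none could be left out. No paired analysis was possible because each group had 1 library. Unknown depth limits low genes such as PROM1, LGR5 and NES most.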
